A study of Mus musculus with 7 samples.

Results

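The contact maps described here are those of undifferentiated mouse embryonic stem (ES) cells, read out with 5C, short for chromosome conformation capture carbon copy. They are 2 of the 7 samples of the series, chosen by their cell type and assay, and they hold 86767 of the 86767 fragment pairs in the deposited 5C table. The cells were V6.5, a male ES line of 129SvJae x C57BL/6 background carrying no stated transgene or treatment. Per the labels, they were grown with LIF on MEF feeders inactivated with Mitomycin-C, then passaged on gelatin to remove the feeders, and fixed with formaldehyde. The 2 libraries are numbered, and nothing says that they came from separate cultures. The p-values below therefore reflect library-to-library spread, possibly technical in origin. The table has no expression values, so the labelled cell type could not be checked against marker genes.

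In 5C, chromatin is crosslinked and cut, here with HindIII, and fragments that lie near each other are ligated. Forward and reverse primers placed on alternating fragments then count each ligated pair. Chromosomes in mammalian cells fold into contact domains, stretches whose fragments meet each other more often than they meet fragments outside. Domain borders are known to hold CTCF and cohesin, and loops between enhancers and promoters are known to form mostly within domains. The captured regions surround 4 genes of pluripotency transcription factors (Oct4, Nanog, Sox2 and Klf4), the Nestin gene, which encodes an intermediate filament protein of neural progenitors, and Olig1-Olig2, a pair of transcription factor genes of the neural lineage. A gene desert served as the negative control.

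The regions spanned 2099 kb (Oct4), 1138 kb (Olig1-Olig2), 1134 kb (Nanog, named Nanog-V2 in the table), 1086 kb (Nestin), 992 kb (Sox2), 989 kb (Klf4) and 196 kb (gene desert). Positions below count kb from each region's assayed fragment with the lowest number. The table gives distances and no chromosome coordinates, so where a gene sits inside its region is not known here, and no feature below is assigned to a gene. Fragments carry the names of their primers in the table (FOR for forward, REV for reverse).

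The libraries held 10742380 reads (replicate 1) and 8236666 reads (replicate 2). The 3 largest pairs alone took 32.2% (Wilson 95% interval 32.179 to 32.235) and 57.1% (57.034 to 57.101) of these reads. Outside them 7282632 and 3536199 reads remained. These intervals include counting error alone, because reads copied by PCR do not stand for separate molecules. Across all pairs the median was 9 and 8 reads, and 9511 and 11514 pairs had 0 reads. Across pairs, log2(count + 1) of the libraries correlated at r = 0.912. After the expected count was taken out, the correlation was 0.560, so single pairs were far less alike between libraries than the raw counts were. Pairs share fragments and are not independent.

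Contact frequency fell with distance at very different rates in the 7 regions. Decay was measured between 10 kb and 1 Mb, as the slope of a line through log10(scaled count + 1) against log10 distance. It was steepest around Nestin, at -1.11 and -1.07 in replicates 1 and 2, and around Oct4, at -1.12 and -1.06. Nanog followed at -1.003 and -0.979 and Klf4 at -0.893 and -0.892. The Olig1-Olig2 region was flatter, at -0.732 and -0.729. The Sox2 region was flattest at -0.506 and -0.497, close to the gene desert at -0.580 and -0.513. Between libraries the slopes differed far less than between most regions: 19 of 21 differences between regions had the same sign in both libraries and exceeded the gap between libraries. The 2 that did not were Nestin against Oct4 and Sox2 against the gene desert. With 2 libraries an exact sign-flip test cannot go below p = 0.5, so no test between regions was made.

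**Figure D1:**
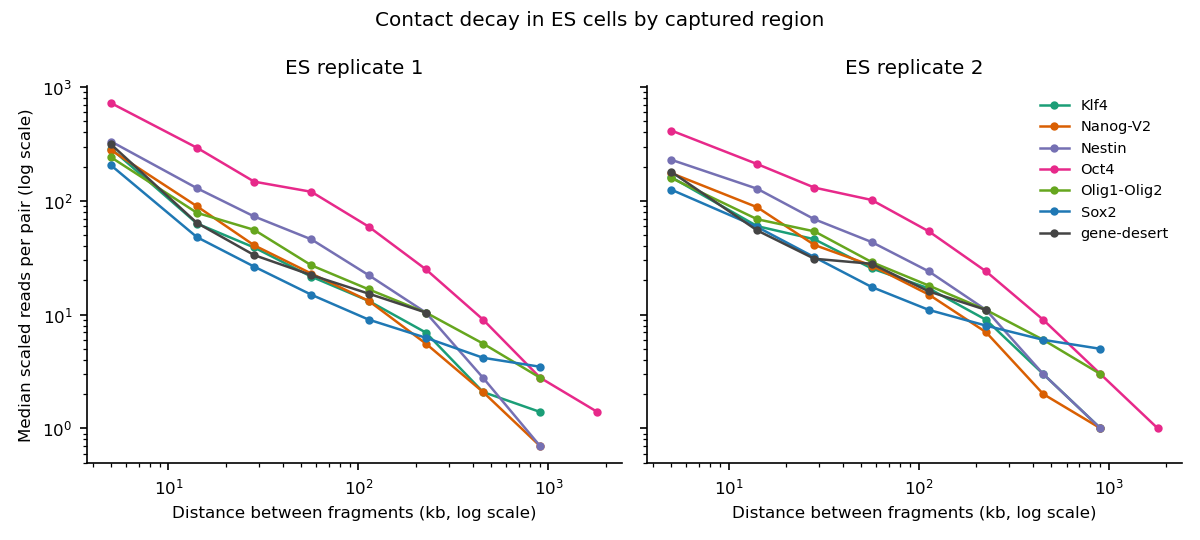
Median scaled reads per fragment pair (vertical, log scale) against distance in kb (horizontal, log scale) in ES replicate 1 (left) and replicate 2 (right), 1 line per region. Oct4 lies highest up to 640 kb in both libraries, and the Sox2 line is the flattest at long distance.

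The plot of median reads by distance shows where the curves part. At 40 to 80 kb, Sox2 pairs had the lowest medians, 15.0 scaled reads in replicate 1 and 17.5 in replicate 2, and Oct4 pairs the highest, 120 and 102. From 640 to 1280 kb, Sox2 pairs had the highest medians, 3.48 and 5 reads, against 0.695 and 1 for Nestin and Nanog and 2.78 and 3 for Oct4. The median at 40 to 80 kb was thus 3.58 and 2.92 times that at 320 to 640 kb around Sox2, and 4.88 and 4.83 times around Olig1-Olig2. Around Nestin the ratios were 16.5 and 14.5, around Oct4 13.3 and 11.3, around Nanog 11 and 13.5, and around Klf4 10.3 and 8.5. Sox2 contacts were the sparsest of the 6 large regions at short range and among the densest at long range.

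Part of this spread belongs to long distances, which the gene desert does not have. Between 10 and 180 kb, which all 7 regions cover, mean slopes ran only from -0.56 (gene desert) to -0.82 (Nanog), and 12 of 21 differences exceeded the gap between libraries. Sox2 was then second flattest at -0.642. Where reads were averaged within distance bins, Oct4 moved from rank 2 to rank 5 in steepness, at -0.678. With regions thinned to 1 median count it was at rank 4, at -0.848, behind Nanog (-0.951), Nestin (-0.950) and Klf4 (-0.870). The steep place of Oct4 thus depended on its depth and on the measure, while Sox2 stayed flattest in both, at -0.656 and -0.514. Medians at long distance rest on few reads: 29.7% of the Klf4 pairs, 40.9% of the Nanog pairs and 39.7% of the Nestin pairs from 640 to 1280 kb had 0 reads in replicate 1, against 14.3% of the Sox2 pairs.

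Each count was next compared with an expected count, built for each region and library from a smooth curve of distance and the typical strength of each primer. The log2 of observed over expected is 0 for a pair that has the reads expected from its distance and its primers. In a position-by-position scan, the boundary contrast was the mean of this value over pairs that do not cross a position, minus the mean over pairs that span it, within 150 kb. A peak of at least 0.3 in both libraries was called a boundary, and the intervals between boundaries were called blocks. These are descriptions without a test.

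The scan gave 17 boundaries, 5 around Oct4, 3 each around Nanog and Klf4, 2 each around Nestin, Sox2 and Olig1-Olig2 and 0 in the gene desert. Per Mb these were 3.03 around Klf4, 2.64 around Nanog, 2.38 around Oct4, 2.02 around Sox2, 1.84 around Nestin and 1.76 around Olig1-Olig2. The gene desert, at 196 kb, gave only 16 positions to scan. The strongest lay in the Nanog region at 620 kb, with contrasts of 0.89 in replicate 1 and 0.83 in replicate 2. The next were at 40 kb of the Klf4 region (0.77 and 0.80), at 810 kb of the Nestin region (0.82 and 0.74) and at 980 kb of the Oct4 region (0.79 and 0.72). Around Olig1-Olig2 the stronger boundary was at 1110 kb (0.65 and 0.69), only 28.3 kb from the end of the region. Around Sox2 it was at 420 kb (0.64 and 0.68). Library values at each of these sites differed by less than 0.1, while the contrasts were several times larger. The Klf4 boundary at 40 kb and that of Olig1-Olig2 at 1110 kb are the first and last positions scanned, compared on 1 side only. Mean log2 observed over expected within the first 40 kb of Klf4 was -0.64 and -1.24 (16 pairs). Pairs from there to the next block were higher, at -0.46 and -0.51. Within the last 28.3 kb of Olig1-Olig2 it was 0.63 and 0.58 (12 pairs), against -0.21 and -0.28 from the block before. In the Oct4 region no position between 1000 and 1090 kb had enough pairs to scan, so the boundary at 980 kb lies beside a gap.

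Weaker boundaries flanked these. The Sox2 region had a further one at 590 kb (0.42 and 0.52), which with that at 420 kb encloses a block of 170 kb. The Nanog region had others at 50 kb (0.49 and 0.41) and 400 kb (0.35 and 0.44). Pairs within its first 50 kb averaged -0.67 and -0.82 (24 pairs), below pairs from there to the next block (-0.29 and -0.23). The Oct4 region had others at 650 kb (0.62 and 0.55), 1110 kb (0.64 and 0.53), 1690 kb (0.57 and 0.53) and 1530 kb (0.46 and 0.36). Its boundary at 1110 kb lies on the far side of the gap in the scan, and the block from 980 to 1110 kb held only 20 pairs. The Klf4 region had others at 390 kb (0.54 and 0.45) and 580 kb (0.31 and 0.34). The Nestin region had one at 400 kb (0.41 and 0.38) and Olig1-Olig2 one at 460 kb (0.43 and 0.41). In the gene desert the contrast stayed between -0.14 and 0.05 in replicate 1 and between -0.11 and 0.14 in replicate 2.

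**Figure D2:**
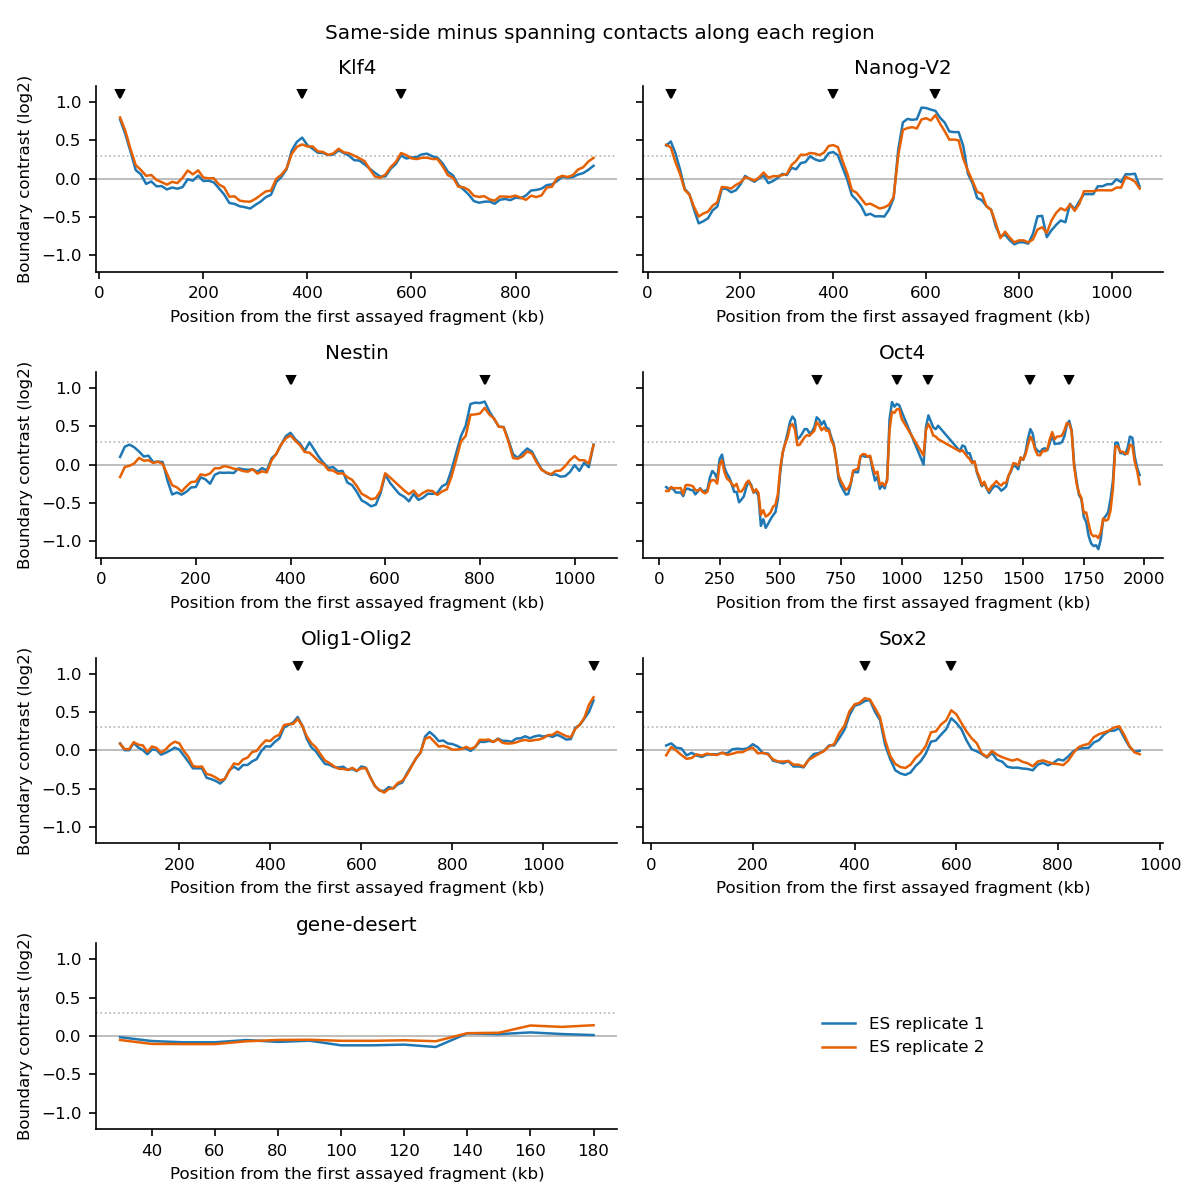
Boundary contrast (log2, vertical) against position in kb (horizontal) in each region, with 1 line per ES library. Triangles mark the 17 boundaries and the dotted line the limit of 0.3; the 2 lines run close together at the boundaries and part most in the first 60 kb of the Nestin profile, and the gene desert stays below the limit.

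Along the regions, the contrast profiles of the libraries correlated at r = 0.982 over 691 positions, which overlap in the pairs they use. In the gene desert the correlation was 0.804 over 16 positions. Boundaries located in replicate 1 alone numbered 18, and 16 of them reached 0.3 in replicate 2, where 17.5% of all positions did. Of 17 located in replicate 2 alone, 16 reached 0.3 in replicate 1. Their positions were less alike: 12 of the 18 and 12 of the 17 had a boundary of the other library within 20 kb. Position also depended on the settings. With a reach of 100 kb in place of 150 kb, 8 of the 17 were found again within 20 kb. Across 4 other settings (a reach of 100 or 200 kb, expected counts from distance alone, and those from the authors' predicted signal), 7 were found in every one: Klf4 40 kb, Nanog 50 kb, Nestin 400 and 810 kb, Oct4 980 kb, Olig1-Olig2 1110 kb and Sox2 420 kb. Of these, Klf4 40 kb, Nanog 50 kb and Olig1-Olig2 1110 kb lie within 50 kb of the end of their region. Oct4 980 kb lies beside the gap in its scan. The Nanog boundary at 620 kb was found in 3 of 4, and with a reach of 100 kb its contrast was 0.53 and 0.54. The Sox2 boundary at 590 kb was found in 2 of 4, and the Nanog boundary at 400 kb in 0 of 4.

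Pairs up to 300 kb apart had more reads for their distance when both fragments lay in the same block. Over all 7 regions the mean log2 observed over expected was 0.009 and 0.007 within blocks (26791 pairs), and -0.32 and -0.32 across boundaries (11615 pairs). The difference between within and across was largest around Nestin, at 0.48 and 0.42, and smallest around Sox2, at 0.17 and 0.23. The blocks were drawn from these same values, so the sign of the difference is fixed by how they were chosen.

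Windows of 60 by 60 kb gave a second view of the maps. Of 1474 windows with at least 4 pairs, 317 (21.5%) were above expected and 581 (39.4%) below in limma's moderated test against 0 at an adjusted p of 0.05. The test took its spread from all windows together, as a function of how many pairs a window holds, so a window's standard error (SE) follows from its number of pairs and not from its own 2 values. The expected count follows the typical pair on a log scale, and window means lay below 0 in both libraries over each of 6 ranges of separation. Window means of the libraries correlated at 0.890. The share above expected ran from 25.0% around Nanog and 23.2% around Olig1-Olig2 to 16.3% around Sox2, with 1 of 10 windows in the gene desert. The share below was highest around Olig1-Olig2, at 48.4%, and Sox2, at 45.8%.

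**Figure D3:**
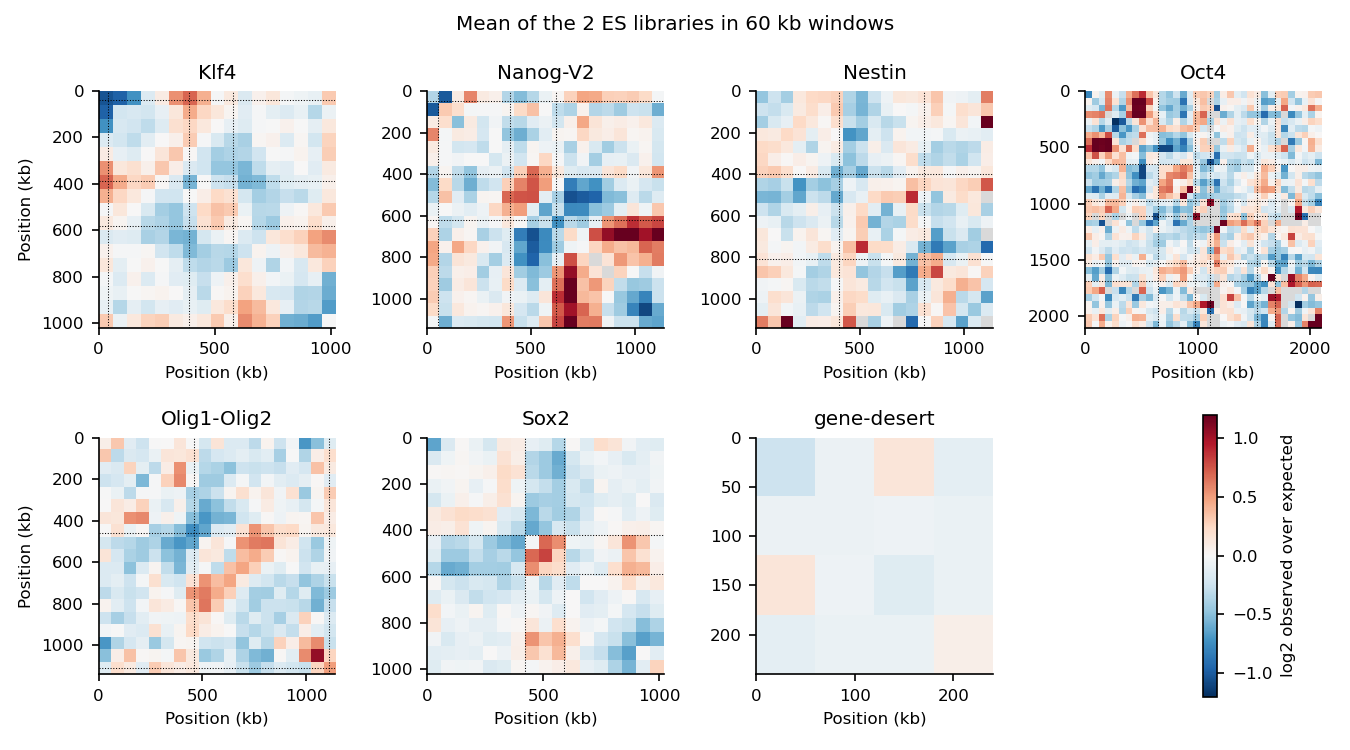
Mean log2 observed over expected of the 2 ES libraries in windows of 60 by 60 kb, with position in kb on both axes, red above and blue below expected, grey for windows with under 4 pairs, and dotted lines at the boundaries. The Nanog map has a red stripe from 660 to 720 kb and a blue area around its boundary at 620 kb, and the Sox2 map a red square between 420 and 540 kb.

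In the Nanog region the stripe at 660 to 720 kb stood out. Its contacts with 960 to 1020 kb were at 1.55 in replicate 1 and 1.48 in replicate 2 (SE 0.08, 40 pairs), and with 900 to 960 kb at 1.55 and 1.38 (SE 0.09, 30 pairs). On the other side of the boundary at 620 kb, the same stretch was depleted. Its contacts with 480 to 540 kb were at -1.14 and -0.94 (SE 0.06, 55 pairs). The diagonal window at 1020 to 1080 kb was also low, at -0.94 and -1.24, on 6 pairs. In its named windows, picked as the highest and lowest of the region, the stretch at 660 to 720 kb was thus above expected towards higher positions and below towards lower ones.

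In the Sox2 region the highest windows made a compact square. The diagonal window at 480 to 540 kb was at 0.82 and 0.80 (SE 0.08, 36 pairs), and that joining 420 to 480 kb with 480 to 540 kb was at 0.74 and 0.65 (SE 0.04, 102 pairs). With an expected count from distance alone, without primer strength, these means were 0.32 and -0.10, so the second did not keep its sign. The lowest windows joined 840 to 900 kb with 900 to 960 kb, at -0.62 and -0.67, and covered 0 to 60 kb, at -0.68 and -0.59. The first of these lost its call with distance alone, at -0.09.

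Around Olig1-Olig2 the 2 highest windows lay inside the block from 460 to 1110 kb. Contacts of 480 to 540 kb with 780 to 840 kb were at 0.70 and 0.59 (SE 0.05, 93 pairs), and the diagonal window at 1020 to 1080 kb was at 1.19 and 0.91 (SE 0.08, 36 pairs). With distance alone the latter was at -0.09. The lowest windows lay at the boundary at 460 kb. The diagonal window at 420 to 480 kb was at -0.81 and -0.69, and contacts of 360 to 420 kb with 480 to 540 kb were at -0.71 and -0.70. The latter lost its call with distance alone, at -0.12.

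Around Nestin, contacts of 480 to 540 kb with 720 to 780 kb were at 0.95 and 0.84 (SE 0.06, 59 pairs), both ends lying in the block from 400 to 810 kb. Across the boundary at 810 kb, contacts of 720 to 780 kb with 840 to 900 kb were at -0.91 and -0.80 (SE 0.05, 89 pairs). The highest and lowest windows by value otherwise lay at the far end, joining 1080 to 1140 kb with 120 to 180 kb (1.33 and 1.71) and with 720 to 780 kb (-1.08 and -0.79). They held 4 and 7 pairs, and the first rested on 4 and 8 reads and lost its call with distance alone, at 0.15. The named windows were picked as the highest and lowest, and the boundary was drawn from these same values, so their opposite signs are partly fixed by the choice. All pairs up to 300 kb apart within the block from 400 to 810 kb averaged 0.027 and 0.029.

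Around Klf4, contacts of the first 60 kb with 360 to 420 kb were at 0.83 and 0.57 (SE 0.05, 99 pairs), and those of 600 to 660 kb with 960 to 1020 kb at 0.59 and 0.53 (SE 0.09, 30 pairs). With distance alone the latter fell to 0.05 and lost its call. The first 60 kb had low contacts among themselves, at -0.88 and -1.19, and with 60 to 120 kb, at -0.92 and -1.02. With distance alone both low windows turned positive, to 0.60 and 0.62, so these depletions are relative to the strength of their primers.

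The Oct4 windows with the highest means, joining 1980 to 2040 kb with 2040 to 2100 kb (2.71 and 2.12) and within 2040 to 2100 kb (2.54 and 1.68), held 6 and 4 pairs. The lowest covered 240 to 300 kb (-1.40 and -1.18) and 1860 to 1920 kb (-1.28 and -1.18) on the diagonal. The 2 libraries differed most in these sparsely filled high windows. In the gene desert the 2 called windows were small, at 0.08 and 0.21 for 0 to 60 kb with 120 to 180 kb and at -0.14 and -0.35 for 0 to 60 kb on the diagonal. The first turned to -0.03 when measured against the authors' predicted signal and to -0.08 with distance alone. Its adjusted p in limma was 0.00569, the largest among the windows named here.

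Single pairs were tested with the quasi-likelihood test of edgeR against their expected counts, for 41178 pairs with a mean of at least 10 reads. Above expected were 8486 pairs (20.6%) and below 2627 (6.38%) at a Benjamini-Hochberg adjusted p of 0.05. The filter on reads keeps low-expectation pairs only where they came out high, which favours calls above expected. DESeq2 called 4362 above and 1237 below. Shares above expected were 27.4% around Nanog, 25.1% around Oct4, 22.1% around Nestin, 19.1% around Olig1-Olig2, 18.9% around Klf4, 14.6% around Sox2 and 9.05% in the gene desert.

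Strong contacts, those above expected and at least 2-fold over it in each library, numbered 2125 (5.16% of tested pairs). All of the tested pairs that reached 2-fold in both libraries were also called by edgeR, so the size limit alone sets this number. Asking for 2-fold in 1 library only gave 4443 pairs in replicate 1 and 3940 in replicate 2. Strong contacts were most frequent around Nanog (263 pairs, 9.47%) and Oct4 (861, 7.97%). Nestin had 215 (4.79%), Olig1-Olig2 355 (3.98%), Klf4 225 (3.50%) and Sox2 200 (2.73%). Against the authors' predicted signal, Oct4 had 625 (5.78%) and Nanog 169 (6.09%), and Klf4, with 267 (4.15%), passed Nestin (158, 3.52%) and Olig1-Olig2 (325, 3.65%). Against distance alone, without primer strength, the order did not hold: Sox2 had the highest share, 50.4%, Nanog 49.9%, and the other large regions 44.8% to 46.6%. The gene desert had 6 (1.36%), and 5 of them joined fragments less than 5 kb apart.

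The share of strong contacts also depended on how many reads a pair was expected to have. Over all pairs with 10 to under 30 expected reads, 2.47% were strong, against 4.13% with 30 to under 100 and 7.48% with 100 or more. Strong contacts with under 10 expected reads are in none of these classes but count in the shares of tested pairs above. They passed the filter on reads only because they came out high. Nanog and Oct4 had the 2 highest shares in each class. With 10 to under 30 expected reads these were 5.23% and 4.08%, with 30 to under 100 they were 6.07% and 6.08%, and with 100 or more they were 11.7% and 9.57%. Sox2 had the lowest share of the 6 large regions in each class, from 1.43% to 3.13%. The gene desert had 0 strong contacts in 140 and 202 pairs of the lower 2 classes and 5 in 114 (4.39%) with 100 or more expected reads. At 10 to 180 kb, 1 of 375 tested pairs of the gene desert was strong (0.267%), against 772 of 17464 in all regions (4.42%). Median mean reads in that range were 37.5 and 48.

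**Figure D4:**
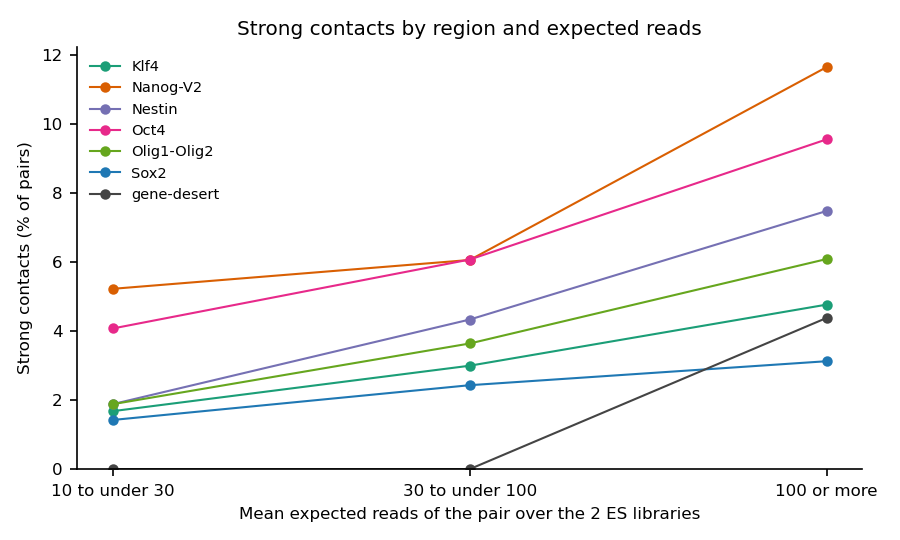
Strong contacts as a percentage of all pairs (vertical) in 3 classes of mean expected reads per pair (horizontal), 1 line per region. Nanog and Oct4 lie above the other regions in each class, and Sox2 is the lowest of the 6 large regions.

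Pairs picked by their size in one library were measured again in the other. Of 476 pairs at least 4-fold above expected in replicate 1, 93.3% were at least 2-fold above in replicate 2, where 9.57% of all tested pairs were. Of 384 picked in replicate 2, 89.8% reached 2-fold in replicate 1, against 10.8% of all tested pairs. By region the first share ran from 85.3% (29 of 34, Klf4) to 95.9% (210 of 219, Oct4). Each library's expected counts were fitted on that library alone. The tested pairs had been filtered on mean reads over both libraries, so a pick in one library was not free of the other. The part of this filter in the shares was not tested.

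Blocks differed widely in how densely they held strong contacts. Their edges were drawn from these same values, so a higher share inside a block than outside is partly built in. The Sox2 block from 420 to 590 kb held 102 strong contacts among 315 tested pairs (32.4%), 51.0% of all strong contacts of that region. Other tested Sox2 pairs over the same distances, up to 170 kb, held 24 in 2840 (0.845%). The edge at 590 kb was found in 2 of 4 other settings. The blocks on either side held 16 in 1990 (0.804%) and 20 in 1398 (1.43%). In the single libraries, 44.4% and 37.8% of the block's tested pairs reached 2-fold. Its pairs had a median of 57.5 mean reads against 38 in the other Sox2 pairs, and the part of this difference in the result was not tested. Measured against the authors' predicted signal the block held 72 strong contacts (22.9%). Its mean log2 observed over expected was 0.47 and 0.47, and with distance alone 0.25 and 0.07.

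The Nanog blocks from 400 to 620 kb and from 620 to 1134 kb held 67 strong contacts in 319 tested pairs and 102 in 360 (28.3%). The second had fewer reads than other Nanog pairs over the same distances (median 27.5 against 34.5), and 6.80% of those others were strong. Pairs of low expectation passed the filter on reads only where they came out high, and the part of this in the share was not tested. With the authors' predicted signal the shares were 12.9% and 13.9%. The second block's mean log2 observed over expected was 0.19 and 0.11. It was -0.17 and -0.14 with the predicted signal and -0.37 and -0.40 with distance alone. The first block's mean stayed positive, at 0.19 and 0.22 with the predicted signal and 0.72 and 0.61 with distance alone. Around Oct4 the densest blocks were 1690 to 2099 kb (73 of 397, 18.4%) and 650 to 980 kb (146 of 941, 15.5%), and the block from 1110 to 1530 kb held 3.03%. Around Nestin and Klf4 no block of more than 100 tested pairs passed 9.17%. The Olig1-Olig2 block from 460 to 1110 kb held 215 of the region's 355 strong contacts (5.47% of its tested pairs).

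The strongest single contacts were extreme in size. The largest joined FOR406 (1712 kb) and REV190 (856 kb) of the Oct4 region, with 746767 reads in replicate 1 and 1510188 in replicate 2 where 8.46 and 23.3 were expected. FOR024 (103 kb) and REV005 (14.5 kb), also of the Oct4 region, had 2470731 and 2870923 reads against 1033 and 963 expected. FOR267 (741 kb) and REV075 (211 kb) of the Klf4 region had 242250 and 319356 reads against 62.5 and 43.0. FOR186 (831 kb) and REV054 (249 kb) of the Oct4 region had 85785 and 57241 against 47.5 and 51.5. All 4 pairs exceeded the expected count by at least 10.09 on the log2 scale in both libraries.

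In the other regions the largest contacts were smaller than these, and all were above expected in both libraries. Around Nanog, FOR106 and REV174, 276 kb apart, had 3734 and 3809 reads against 5.15 and 4.28 expected. FOR339 and REV118, 768 kb apart and the longest named Nanog contact, had 657 and 987 reads against 3.84 and 2.41. FOR100 and REV197, 386 kb apart, had 355 and 361 reads against 6.86 and 5.43. Each exceeded the expected count by at least 5.50 on the log2 scale in both libraries. Each spanned a boundary, which FOR339 and REV118 could not avoid, as the longest Nanog block is 514 kb. FOR106 and REV174 spanned the boundary at 400 kb, which was found in 0 of 4 other settings.

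Around Nestin, FOR165 and REV258, 430.3 kb apart, had 8029 and 21762 reads against 17.7 and 41.4 expected. FOR200 and REV053, 630 kb apart, had 1814 and 2289 reads against 9.39 and 8.02. FOR013 and REV220, 842 kb apart and the longest, had 220 and 291 reads against 0.896 and 0.505. The Nestin contacts were all longer than the longest Nestin block, 410 kb, so their ends could only lie in different blocks.

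Around Olig1-Olig2, FOR147 and REV241, 291 kb apart, had 3334 and 6119 reads against 25.0 and 23.6 expected. FOR138 (467 kb, against 504 kb for FOR147) gave with the same REV241 1287 and 1861 reads against 26.0 and 24.8. FOR282 and REV141, 430.03 kb apart, had 817 and 110 reads against 6.11 and 2.75, a wide gap between libraries. All of these joined fragments of the block from 460 to 1110 kb. The longest, FOR029 and REV250 at 674 kb, had 56 and 118 reads against 15.4 and 7.79.

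Around Sox2, FOR249 and REV124, 367 kb apart, had 481 and 284 reads against 2.62 and 2.54 expected. FOR192 and REV180, 48.1 kb apart within the block from 420 to 590 kb, had 6023 and 3736 reads against 92.1 and 46.3. FOR165 and REV240, 243 kb apart, had 549 and 561 reads against 10.2 and 6.92. The longest, FOR072 and REV275 at 560.1 kb, had 77 and 114 against 30.3 and 27.7, which is modest beside the others.

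Around Klf4, FOR205 and REV099, 310.3 kb apart, had 1364 and 1187 reads against 32.3 and 14.8 expected, and FOR088 and REV222, 393 kb apart, had 292 and 327 against 6.40 and 5.84. The longest Klf4 contact, FOR353 and REV075 at 760.1 kb, had 67 and 53 reads against 30.1 and 18.8, and the longest Oct4 contact, FOR487 and REV044 at 1847 kb, had 134 and 357 against 2.93 and 3.13. The gene desert had no strong contact at 20 kb or more with 50 reads in each library. Adjusted p-values in edgeR for the pairs named here ran up to 2.4e-05, that of FOR353 and REV075 of the Klf4 region.

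The largest contacts stood alone in the map. Neighbours of a pair were other pairs whose ends both lay within 20 kb of its ends and which shared neither fragment with it. A pair was called supported where its neighbours averaged at least 0.5 on the log2 scale in both libraries. Of strong contacts with at least 3 neighbours, 610 of 1804 (33.8%) were supported, against 6.00% of all tested pairs with as many. The share was 34.1% for contacts 2-fold to under 4-fold above expected and 44.3% from 4-fold to under 8-fold. It was 1 of 21 (4.76%) from 8-fold to under 16-fold, 2 of 25 from there to under 64-fold and 1 of 17 (5.88%) at 64-fold or more. Moderate contacts were often part of a wider patch, and the extreme ones mostly were not.

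**Figure D5:**
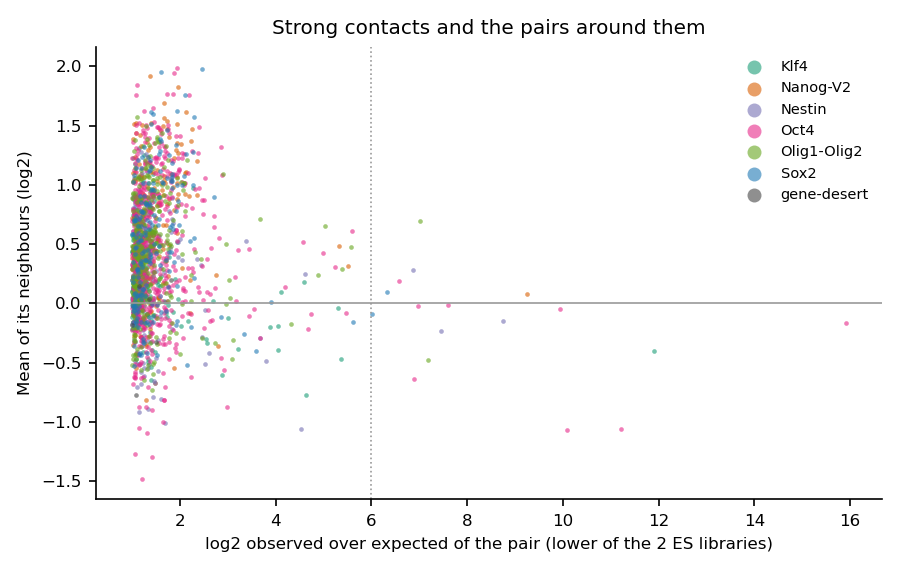
Each point is a strong contact with at least 3 neighbouring pairs, coloured by region; horizontal is its log2 observed over expected in the lower of the 2 ES libraries, vertical the mean of its neighbours over both libraries, and the dotted line marks 64-fold. Beyond the dotted line 1 point lies above 0.5 on the vertical axis and the lowest lie near -1.07, while many moderate contacts lie above 0.5.

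The 20 contacts of 64-fold or more took 34.3% and 59.6% of all reads of the libraries. Oct4 held 10 of them, with 54.7% and 77.4% of its region's reads, and Klf4 held 1, with 20.0% and 41.7%. Median neighbour values were -0.17 and -0.03. The largest Oct4 pair, FOR406 with REV190, had neighbours at -0.41 and 0.08, and the largest Klf4 pair had neighbours at -0.43 and -0.37. Lower still were the neighbours of FOR024 with REV005, at -1.07 and -1.05, and of FOR186 with REV054, at -1.38 and -0.76, both of the Oct4 region. The 1 supported contact of this size was that of FOR147 and REV241 in the Olig1-Olig2 region, with neighbours at 0.77 and 0.62. Decay slopes moved little without all pairs that reached 64-fold in at least 1 library, a wider set than the 20 contacts. The spread between the steepest and the flattest region was then 0.593 against 0.590.

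The share of supported contacts, out of strong contacts with at least 3 neighbours, differed by region. It was 47.2% around Nanog, 45.5% around Sox2, 37.7% around Olig1-Olig2, 35.4% around Oct4, 20.1% around Nestin, 13.4% around Klf4 and 0 of 6 in the gene desert. The shares of all tested pairs with at least 3 neighbours that were supported were 10.2%, 3.05%, 5.61%, 9.51%, 6.21%, 3.70% and 2.71%. The strongest supported contact of Sox2 joined FOR159 (459 kb) and REV180 (542 kb), with 383 and 267 reads against 49.8 and 39.8 expected and neighbours at 0.89 and 0.90. In the Nanog region FOR131 (428 kb) and REV160 (539 kb) led with 128 and 103 reads against 20.6 and 19.3 and neighbours at 1.13 and 0.70. There FOR192 (675 kb) and REV326 (1090 kb) had 259 and 93 reads against 44.2 and 17.4, with neighbours at 1.67 and 0.73. Around Nestin, FOR223 (875 kb) and REV207 (826 kb) had 1648 and 506 reads against 276 and 148, with neighbours at 0.95 and 0.62. These 4 contacts each lie inside 1 block. Around Oct4 the strongest joined FOR474 (1967 kb) and REV154 (714 kb) and so spanned 4 boundaries. It had 212 and 70 reads against 1.64 and 0.5 expected, with neighbours at 0.63 and 0.59. The 0.5 is the floor set for expected counts, and a pair of such low expectation passed the filter on reads only because it came out high. The next Oct4 one joined FOR112 (501 kb) and REV093 (420 kb), with 2168 and 615 reads against 148 and 107 expected and neighbours at 1.01 and 1.11. Around Klf4, FOR119 (344 kb) and REV012 (32.8 kb) spanned the boundary at 40 kb, with 340 and 192 reads against 54.2 and 39.1 and neighbours at 0.97 and 0.99.

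Strong contacts were unevenly shared among fragments. The tenth of fragments with the most strong contacts held 56.3% of all contact ends around Sox2, and between 28.9% (Oct4) and 36.0% (Klf4) in the other large regions. Around Sox2, 126 of 248 fragments had 0 strong contacts, against 23 of 299 around Oct4. Support below is given out of all strong contacts of a fragment. How many of them had the 3 neighbours needed to score it was not counted. The Sox2 fragment with most was REV158 (456 kb), inside the block, with 16 strong contacts in 80 tested pairs, of which 11 were supported, at a median distance of 65.8 kb. The Nanog fragment was REV186 (642 kb), just beyond the boundary at 620 kb, with 16 in 57, of which 3 were supported, at a median of 370 kb. The Olig1-Olig2 fragment was REV141 (478 kb), beside the boundary at 460 kb, with 16 in 82, of which 6 were supported. Each of these 3 lay within 40 kb of a boundary. The share of all fragments that lie so close to one was not counted, and the boundaries come from these same values.

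The Oct4 fragment with most was FOR406, the end of the largest contact, with 29 strong contacts in 105 tested pairs at a median distance of 1174 kb. None of the 29 was supported, but some may have had too few neighbours to be scored: around Oct4, 638 of 861 strong contacts had enough. The primer strength fitted for FOR406 differed between libraries (0.23 and 1.12 on the log2 scale). By contrast FOR112, the next Oct4 fragment, had 25, of which 18 were supported. The Nestin fragment was FOR206 (816 kb), within 10 kb of the boundary at 810 kb, with 10 in 60 and 0 supported. The Klf4 fragment was REV020 (58.5 kb), with 11 in 79 and 1 supported. No gene desert fragment had more than 1. Primer strengths in general correlated between libraries at 0.963 over 1464 fragments.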

How the data were processed

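Fragment pairs were counted by 5C in 2 ES libraries. The table deposited by the authors gives unnormalized, whole-number read counts of each pair in each library. It also gives the authors' predicted signal for each, made by a model not given in the sources used here. Per the submitters' processing notes, Bowtie was used, with no version named. Another 20 per-sample columns were not used. The members, lists and rules were chosen with earlier results of these data known.

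Positions were rebuilt from the deposited distances by least squares (largest misfit 0.556 bp). Expected counts came, per region and library, from a lowess curve (span 0.3) of log2(count + 1) on log10 distance plus median primer effects, in 5 rounds (Python 3.11.15, statsmodels 0.14.6), floored at 0.5 reads. They correlated with the authors' predicted signal on the log2 scale across pairs at 0.991 and 0.992. Pairs were tested in edgeR 4.0.16 (R 4.3.3) by its quasi-likelihood test, in an intercept-only fit with log expected count as offset. The F test was written out, since the packaged one takes no design of 1 column. With 2 libraries the spread came largely from all pairs together (26.2 prior degrees of freedom), and the error of the expected count does not enter. Windows were tested with limma 3.58.1. Adjusted p-values are Benjamini-Hochberg values with a threshold of 0.05. Counts for decay were scaled by TMM factors. Tests were run on data simulated around the same expected counts, and for windows around 0, so these runs cannot show error in the expected count.

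Named were, per region, the 3 strong contacts with the largest mean and the 1 longest at 20 kb or more with at least 50 reads in each library, the 2 highest and 2 lowest called windows, the boundaries and the fragment with most strong contacts. All boundaries are given, also those of Oct4 beyond its 3 strongest. FOR112, the supported contacts named, neighbour support, block shares, classes of expected reads and picks in 1 library were added after values had been seen. Alternatives covered DESeq2 1.42.0, limma, other expected counts, filters, pseudocounts, window sizes, reaches and single libraries. No NPC library and no ChIP-seq file was used.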

Additional observations from a re-analysis of the deposited data

How the results depend on the processing

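No paired analysis was possible because only the ES group is used. An expected count from distance alone, without primer strength, moved 3 of 6 counts: 26008 pairs above expected, 19199 strong contacts and 577 windows above expected. It also reversed 4 named windows besides the gene desert's, Klf4 0 to 60 kb on the diagonal (0.60) and with 60 to 120 kb (0.62), Olig1-Olig2 1020 to 1080 kb (-0.088) and Sox2 420 to 480 with 480 to 540 kb (-0.10). The gene desert window of 0 to 60 with 120 to 180 kb went to -0.078 there and to -0.029 with the authors' predicted signal. Another 4 named windows lost their call with distance alone, Klf4 600 to 660 with 960 to 1020 kb (0.052), Nestin 120 to 180 with 1080 to 1140 kb (0.15), Olig1-Olig2 360 to 420 with 480 to 540 kb (-0.12) and Sox2 840 to 900 with 900 to 960 kb (-0.094). DESeq2 gave 4362 pairs above and 1237 below, and a minimum of 50 reads 1132 below. Windows of 40 kb gave 593 above and 1012 below, and windows of 80 kb 385 below, of 3026 and 897 windows. A boundary limit of 0.5 kept 9. Single libraries gave 3940 to 4443 strong contacts (by size alone), 17 to 18 boundaries and a spread of decay slopes of 0.574 to 0.612. That spread, 0.590 as reported, was 0.269 at 10 to 180 kb, 0.542 without pairs of 0 reads, 0.552 on the predicted signal, 0.497 with pseudocount 5, 0.429 on bin means and, added after the data were seen, 0.436 with regions thinned to 1 median count. Of 176 values for named pairs under the alternatives, all stayed above expected and 174 kept their call. The 2 that lost it were Klf4 FOR353 with REV075 at pseudocount 5 (log2 0.49, edgeR adjusted p 0.059) and Oct4 FOR024 with REV005 in limma (11.38 as reported, adjusted p 0.155). The causes were not tested. Pairs averaging fewer than 10 reads were not tested, so weak long contacts are not seen at this depth.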
